A study of Mus musculus with 16 samples.

Results

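The genes described here carry out glycolysis or answer to low oxygen. They were chosen by name, as 36 genes: glucose and lactate transporters, the enzymes from hexokinase to lactate dehydrogenase, the subunits and regulators of the hypoxia-inducible factors (HIF), and established HIF targets. Of the 36, 33 had a named probe on the array and 29 passed the filter on dim probes (detected on at least 4 of the 16 arrays), out of 11332 tested genes. Pfkfb3 and Eno2 were detected on 3 arrays each and Bnip3 and Car9 on 0, so they were not tested, and Hk2, Gpi1 and Eno1 were not analysed here. RNA of embryos and of yolk sacs, taken from C57BL/6J mice at 9.5 days post coitum, was hybridised to Illumina bead arrays. The parents were heterozygous for rudhira (Bcas3) lacking exon 6. The 4 groups were wild-type embryos, homozygous mutant embryos, wild-type yolk sacs and homozygous mutant yolk sacs, with 2 RNA samples a group and 2 arrays for each sample. An embryo and a yolk sac with the same number and genotype came from 1 conceptus. The deletion is carried in the germ line, so every cell of a mutant conceptus lacks the exon, and the labels record the mutants as small, with vessels that formed abnormally.

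Glycolysis splits glucose into pyruvate and, when pyruvate is reduced to lactate, yields ATP without oxygen. The HIF transcription factors join an oxygen-sensitive alpha subunit (Hif1a, or Epas1 for HIF-2) to a stable partner. With oxygen present, the prolyl hydroxylases Egln1 and Egln3 mark the alpha subunit, and the Vhl ubiquitin ligase then has it destroyed, so the control acts mainly on the protein and not on its RNA. When oxygen falls the factor persists, binds the motif ACGTG or GCGTG, and raises glucose transporters, glycolytic enzymes, Pdk1, Egln3 and P4ha2 among others. Mouse embryos at this stage are changing from diffusion to a circulation that carries blood cells made in the yolk sac.

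The repeat arrays of a sample correlated at 0.996 to 0.998, and an array detected from 17382 to 19576 of its 45281 probes. The number of RNA samples, 2 a group, and the signal over background limit the precision. The probe of the targeted gene did not separate the embryos by genotype. The signal of the Bcas3 probe was 331 and 391 in the wild-type embryos, 270 in mutant embryo 1 and as high as 664 in the library labelled mutant embryo 2. Yolk sacs gave 759 and 1244 in the wild types and 234 and 278 in the mutants. These signals are not scaled between arrays, and the mutant yolk sac arrays were dimmer as a whole, with a 75th percentile of 67 to 74.8 against 97.6 to 140.7 on the other arrays. Whether this probe lies in the deleted exon is not given in the sources used here, so it cannot check the genotype. That library is called "the library labelled mutant embryo 2" throughout, and the larger embryo effects that moved by over 1.5 times without it are given both ways where their values are described. Markers of other cells differed between libraries as well. The summed signal of 11 tested markers of primitive erythroid cells was 102345 and 104146 in the wild-type embryos, 92736 in mutant embryo 1 and only 47787 in the library labelled mutant embryo 2. Markers of visceral endoderm, the outer layer of the yolk sac, summed to 730 and 21926 in the wild-type embryos and to 9804 and 16120 in the mutant embryos. The neural markers gave sums of 3640 and 3513 in wild-type embryos and 2193 and 1999 in the mutants, and 5 of the 9 tested were lower past the threshold. Of the tested markers of these 3 lists, only 1 neural marker was undetected on all arrays of the mutant embryos. Heart markers identified the tissues, at 19882 to 22328 in embryos and 110 to 163 in yolk sacs.

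In embryos the members lay higher in the mutants. Over the 29 members the median genotype effect (mutant minus wild type, log2) was 0.41, against 0.00020 over all genes tested, and 25 of the 29 effects were above 0. A single member passed the threshold, an adjusted p of 0.05 over all genes (limma, two-sided): P4ha2, a subunit of the collagen prolyl 4-hydroxylase that stabilises collagen, which rose by 0.68 on the log2 scale. Of all genes, 2.13% passed in this comparison, so 1 of 29 is near the background. At an unadjusted p under 0.05 there were 11 members (37.9%), against 12.5% of all genes. Without the library labelled mutant embryo 2 there were 3 (10.3%), against 6.40% of all genes, and in the embryo pair that the series design names 2 (6.9%), against 5.95%. Both mutants lay above both wild types for 20 members (69%), against 25.2% of all genes, and below them for 1 member, Pfkfb4, against 26.7%. The 20, and the 25 above 0, include Epas1, which no embryo array detected, so its order there is not informative. In bulk tissue, a shift in the cells present and a change of RNA within them cannot be told apart.

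The 2 mutant embryos contributed unequally. Relative to the mean of the wild-type embryos, the median over the members was 0.13 in mutant embryo 1, with 23 of 29 above 0 and 0 above 1. It was 0.66 in the library labelled mutant embryo 2, with 26 above 0 and 7 (24.1%) above 1, where 0.900% of all genes were above 1. The wild-type embryos stood at 0.0060 and -0.0060. The direction was therefore shared, and most of the size came from one library. That library also had the lowest erythroid marker signal, and the part of this in the result was not tested. Of the 29 effects, 23 shrank by over 1.5 times or turned in sign without the library labelled mutant embryo 2.

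**Figure D1:**
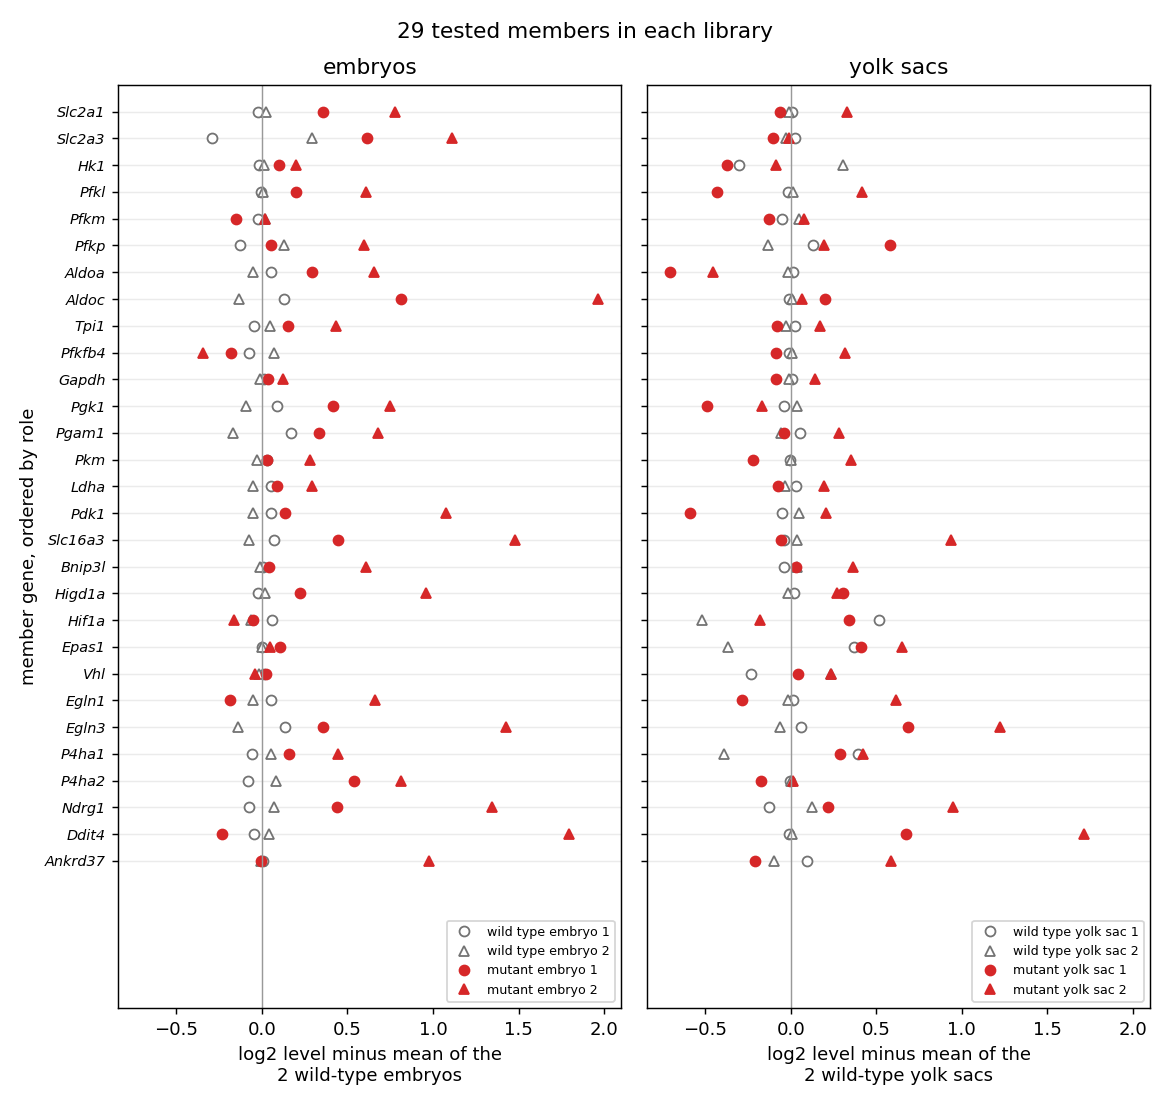
Log2 level of each of the 29 tested members (rows, ordered by role) minus the mean of the 2 wild-type libraries of the same tissue; grey open symbols are wild type and red filled symbols mutant, circles number 1 and triangles number 2. In embryos most red symbols lie right of 0 and the triangles (the library labelled mutant embryo 2, median 0.66) lie beyond the circles (median 0.13); in yolk sacs the circles centre at -0.073 and the triangles at 0.27.

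In yolk sacs no member passed the threshold, against 1.27% of all genes (limma, adjusted p). At an unadjusted p under 0.05 there were 3 members (10.3%), against 20.9% of all genes. The median effect was 0.12, against 0.0023 over all genes, and 21 of 29 effects were above 0. Both mutants lay above both wild types for 7 members (24.1%, all genes 23.8%) and below them for 2, Aldoa and Pgk1 (all genes 24.1% below). These shares were at the background or under it. The 7 higher members, and the 21 above 0, include Aldoc, detected on only 1 of the 8 yolk sac arrays. Both counts also include Higd1a, which no wild-type yolk sac array detected. The 21 include Slc16a3 as well, detected on 2 of the 8 yolk sac arrays. As in the embryos, number 2 was the higher: the member median was -0.073 in mutant yolk sac 1 (11 of 29 above 0) and 0.27 in mutant yolk sac 2 (24 above 0, 2 above 1). The erythroid markers stood at a mean log2 level of 11.2 in both wild-type yolk sacs and at 10.74 and 11.01 in the mutants, with 10 of 11 below 0 and 0 at an unadjusted p under 0.05. Of 9 endothelial markers 8 lay above 0 in the mutants. An unadjusted p under 0.05 was reached by 6, of which Cd34 was lower (-0.38) and the others higher. Pecam1, an adhesion protein of endothelial cells, rose by 0.53 on the log2 scale (limma adjusted p = 0.04998). The summed signal of the endothelial markers was 4461 and 6308 in the wild-type and 4665 to 5600 in the mutant yolk sacs. Of 6 trophoblast and decidua markers 5 lay above 0, and Plac1 rose by 1.03 (adjusted p = 0.0436), with sums of 1836 to 4739 and 2605 to 3010. All markers of these lists were detected in every yolk sac group, and their part in the result was not tested.

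**Figure D2:**
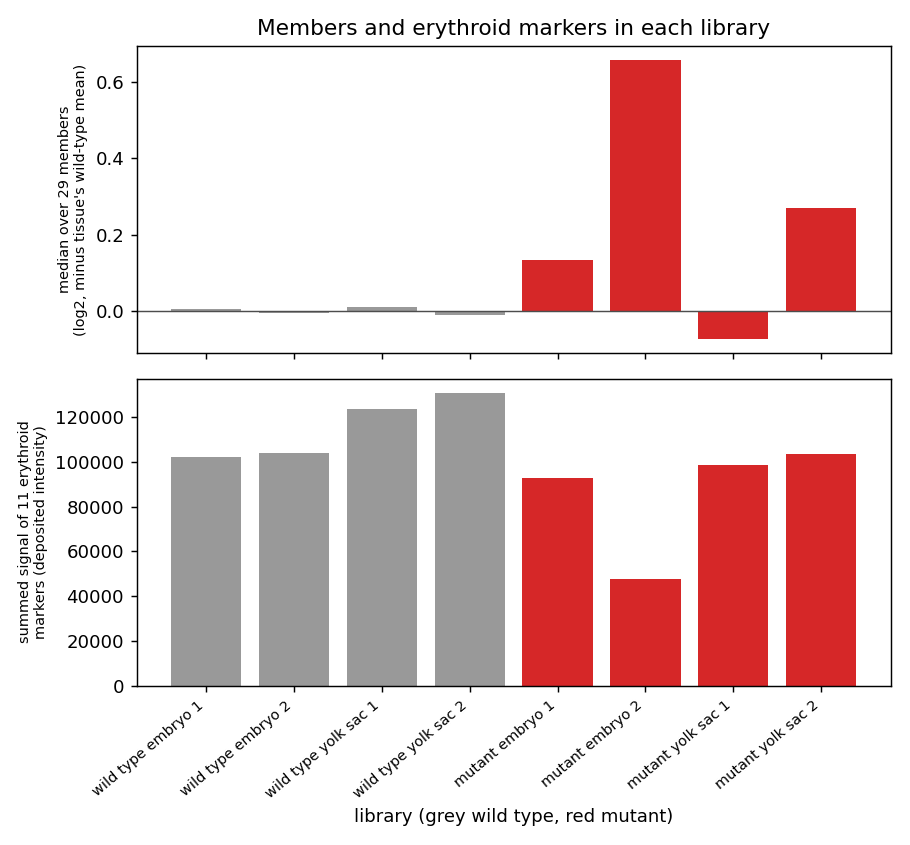
Upper bars give the median over 29 members in each library as a log2 difference from the tissue's wild-type mean, and lower bars the summed deposited signal of 11 erythroid markers, which is not scaled between arrays. The library labelled mutant embryo 2 has the highest member median (0.66) and the lowest erythroid signal (47787).

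The promoters of the members were searched for the HIF core motif, since most members are known HIF targets. RefSeq promoters (GRCm38.p6) were found for 25 of the 29 tested members, which gave 35 promoters, and the 250 bases before each start were read. ACGTG or GCGTG, on either strand, occurred at least once in 28 of 35 (80%), against 38.6% of 32851 promoters of the same length. At least 2 matches were present in 17 (48.6%), against 16.7%, and ACGTG in 48.6%, against 16.6%. A palindrome CACGTG counts once on each strand. Some windows of Aldoa and of Pfkm overlap, so the same motif counts in each. The comparison covers all promoters and not those of the tested genes alone. Because known HIF targets were among the genes chosen, the higher share is no independent support. A match describes the letters and does not show binding. The promoters shown are those of the member that passed the test in embryos (P4ha2) and of members from transport to stress response that the next paragraphs turn on. Capitals mark the motif, which reads CACGT or CACGC where it lies on the other strand, and each sequence runs 5′ to 3′ on the gene's strand. They are P4ha2 at chr11:54100674-54100923 (plus strand), Slc2a1 at chr4:119108495-119108744 (plus), Pgk1 at chrX:106186850-106187099 (plus), Ldha at chr7:46845554-46845803 (plus, one of its 2 starts), Slc16a3 at chr11:120948817-120949066 (plus) and Ddit4 at chr10:59951771-59952020 (minus).
P4ha2: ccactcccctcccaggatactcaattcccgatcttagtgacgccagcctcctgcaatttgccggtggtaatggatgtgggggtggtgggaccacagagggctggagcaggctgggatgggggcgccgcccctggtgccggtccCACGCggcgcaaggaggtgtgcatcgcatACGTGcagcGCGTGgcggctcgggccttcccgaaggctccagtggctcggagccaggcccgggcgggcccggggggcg
Slc2a1: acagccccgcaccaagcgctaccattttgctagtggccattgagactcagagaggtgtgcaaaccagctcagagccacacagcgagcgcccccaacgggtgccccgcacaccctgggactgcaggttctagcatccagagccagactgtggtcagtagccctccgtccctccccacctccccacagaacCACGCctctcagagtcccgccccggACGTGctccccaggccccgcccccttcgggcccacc
Pgk1: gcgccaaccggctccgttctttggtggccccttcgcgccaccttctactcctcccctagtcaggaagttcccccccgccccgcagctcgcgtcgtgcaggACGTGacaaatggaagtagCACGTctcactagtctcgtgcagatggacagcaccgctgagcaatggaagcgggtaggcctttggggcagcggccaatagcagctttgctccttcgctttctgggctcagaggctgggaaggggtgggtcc
Ldha: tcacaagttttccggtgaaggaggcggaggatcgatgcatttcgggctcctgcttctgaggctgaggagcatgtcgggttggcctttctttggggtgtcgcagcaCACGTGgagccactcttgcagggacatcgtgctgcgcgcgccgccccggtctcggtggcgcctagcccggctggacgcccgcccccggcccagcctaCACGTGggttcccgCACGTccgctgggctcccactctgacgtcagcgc
Slc16a3: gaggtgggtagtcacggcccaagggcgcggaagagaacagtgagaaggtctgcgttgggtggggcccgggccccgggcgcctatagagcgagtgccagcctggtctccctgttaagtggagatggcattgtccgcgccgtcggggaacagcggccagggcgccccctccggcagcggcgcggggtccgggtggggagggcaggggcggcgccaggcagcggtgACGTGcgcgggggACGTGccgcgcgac
Ddit4: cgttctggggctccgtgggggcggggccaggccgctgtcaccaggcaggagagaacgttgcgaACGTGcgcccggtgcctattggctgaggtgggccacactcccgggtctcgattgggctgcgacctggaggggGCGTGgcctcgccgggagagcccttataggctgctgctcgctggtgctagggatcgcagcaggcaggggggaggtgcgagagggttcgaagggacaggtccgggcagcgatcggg
Ldha held the most matches of these, 5, of which 4 form 2 palindromes. P4ha2 held 3, and Slc2a1, Pgk1, Slc16a3 and Ddit4 held 2 each. No match was found in these windows for Vhl or Tpi1, and Hif1a itself held 3.

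Slc2a1 and Slc2a3 encode the glucose transporters GLUT1 and GLUT3 of the plasma membrane. The log2 level of Slc2a1 was at 12.43 and 12.48 in the wild-type embryos, at 12.81 in mutant embryo 1 and at 13.23 in the library labelled mutant embryo 2. Slc2a3 was at 11.43 and 12.01 in the wild-type embryos, at 12.33 in mutant embryo 1 and at 12.83 in the library labelled mutant embryo 2. For both, each mutant embryo lay above each wild type, although the wild types already differed for Slc2a3. The effects were 0.57 (SE 0.17, limma adjusted p = 0.202) and 0.86 (SE 0.22, limma adjusted p = 0.127), so neither passed. Without the library labelled mutant embryo 2 the Slc2a1 effect was 0.36. In yolk sacs Slc2a1 was at 13.23 and 13.21 in the wild-type and 13.16 and 13.54 in the mutant yolk sacs, and Slc2a3 at 13.80 and 13.74 in the wild-type and 13.67 and 13.76 in the mutant yolk sacs. The genotypes overlapped there for both genes. Between tissues the difference passed for both: Slc2a3 was 1.59 higher in yolk sac than in embryo on the log2 scale (SE 0.15, limma adjusted p = 3.96e-05), and Slc2a1, with overlap between the tissues, 0.55 higher (adjusted p = 0.00379). The Slc2a1 call was lost in the mutants alone (0.33, adjusted p = 0.121).

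Hexokinase 1 traps glucose in the cell, and phosphofructokinase commits it to glycolysis as tetramers of liver, muscle and platelet type subunits (Pfkl, Pfkm, Pfkp). On the probes used, Pfkl and Pfkp differed by tissue in opposite directions, and Pfkm differed least. Pfkl was at 12.10 and 12.11 in the wild-type embryos, at 12.31 in mutant embryo 1 and at 12.72 in the library labelled mutant embryo 2, with 10.92 and 10.95 in the wild-type and 10.50 and 11.35 in the mutant yolk sacs. Pfkp ran the other way, at 7.11 and 7.37 in the wild-type embryos, at 7.29 in mutant embryo 1 and at 7.84 in the library labelled mutant embryo 2, with 8.92 and 8.65 in the wild-type and 9.36 and 8.98 in the mutant yolk sacs. Pfkl fell by 1.38 from embryo to yolk sac (log2, SE 0.18, limma adjusted p = 0.000231) and Pfkp rose by 1.58 (SE 0.15, adjusted p = 3.83e-05). A second Pfkl probe gave a tissue difference of only -0.21, so its size depends on the probe. Pfkm was nearly level, at 9.95 and 9.99 in the wild-type embryos, at 9.82 in mutant embryo 1 and at 9.98 in the library labelled mutant embryo 2, with 9.61 and 9.71 in the wild-type and 9.53 and 9.74 in the mutant yolk sacs, and fell by 0.29 in yolk sac (adjusted p = 0.0104). Hk1 was at 6.33 and 6.36 in the wild-type embryos, at 6.44 in mutant embryo 1 and at 6.54 in the library labelled mutant embryo 2, with 5.73 and 6.34 in the wild-type and 5.67 and 5.95 in the mutant yolk sacs, and fell by 0.49 in yolk sac (adjusted p = 0.0118). None of these 4 passed between genotypes in either tissue. The embryo effects of Pfkl and Pfkp were 0.41 and 0.33. They were 0.20 and 0.055 without the library labelled mutant embryo 2. The second kept probe of Hk1 had the opposite sign in both genotype comparisons, at 0.25 in yolk sac and -0.16 in embryo.

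Aldolase splits the phosphorylated sugar, with Aldoa in most tissues and Aldoc mainly in brain, and triose phosphate isomerase (Tpi1) interconverts the products. Aldoc had the highest embryo effect of the members, at 5.79 and 5.53 in the wild-type embryos, at 6.47 in mutant embryo 1 and at 7.63 in the library labelled mutant embryo 2. Both mutants lay above both wild types, with a difference of 1.39 (SE 0.32, limma adjusted p = 0.0948), which did not pass. Without mutant embryo 1 the difference was 1.97 and passed (adjusted p = 0.00384), and it was 0.81 when the library labelled mutant embryo 2 was left out. In yolk sacs Aldoc was at 4.67 and 4.69 in the wild-type and 4.89 and 4.75 in the mutant yolk sacs, detected on 1 of 8 arrays. The tissue difference is therefore a bound: Aldoc was at least 2.43-fold lower in yolk sac (adjusted p = 0.000344), and at least 1.48-fold between the wild types alone, where no yolk sac array detected it. Aldoa was at 12.41 and 12.30 in the wild-type embryos, at 12.65 in mutant embryo 1 and at 13.01 in the library labelled mutant embryo 2, and at 12.16 and 12.13 in the wild-type and 11.45 and 11.70 in the mutant yolk sacs. It was higher in both mutant embryos and lower in both mutant yolk sacs than in the wild types, with effects of 0.47 (SE 0.14, adjusted p = 0.208) and -0.58 (SE 0.14, adjusted p = 0.0913). Neither passed, and the embryo effect was 0.29 without the library labelled mutant embryo 2. Over both genotypes Aldoa fell by 0.73 in yolk sac (adjusted p = 0.000316). Tpi1 differed between genotypes by 0.29 in embryo and 0.05 in yolk sac, and neither passed. The embryo value was 0.15 without the library labelled mutant embryo 2. The yolk sac value of Tpi1 depended on the probe, since its other kept probes gave 0.40 and -0.32.

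Pfkfb4 makes and removes fructose 2,6-bisphosphate, an activator of phosphofructokinase, and is a known HIF target. It was the one member with both mutant embryos below both wild types, at 7.72 and 7.87 in the wild-type embryos, at 7.61 in mutant embryo 1 and at 7.45 in the library labelled mutant embryo 2. The effect of -0.26 (SE 0.14, limma adjusted p = 0.544) did not pass. In yolk sacs it was at 8.73 and 8.75 in the wild-type and 8.66 and 9.06 in the mutant yolk sacs, and it rose by 1.14 over embryos (SE 0.10, adjusted p = 2.59e-05), with every yolk sac above every embryo.

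The later enzymes, from glyceraldehyde phosphate dehydrogenase (Gapdh) to pyruvate kinase (Pkm), harvest the ATP. Pgk1, phosphoglycerate kinase, was at 12.48 and 12.30 in the wild-type embryos, at 12.80 in mutant embryo 1 and at 13.14 in the library labelled mutant embryo 2. Pgam1, phosphoglycerate mutase, was at 10.74 and 10.39 in the wild-type embryos, at 10.90 in mutant embryo 1 and at 11.25 in the library labelled mutant embryo 2. Both mutants exceeded both wild types for these enzymes, with effects of 0.58 (SE 0.15, limma adjusted p = 0.148) and 0.51 (SE 0.18, adjusted p = 0.282), and neither passed. The Pgam1 effect was 0.33 without the library labelled mutant embryo 2. The other kept probes of Pgk1 gave embryo effects of 0.68 and 0.17, so the size of its rise depended on the probe. In yolk sacs Pgk1 was at 11.79 and 11.86 in the wild-type and 11.34 and 11.66 in the mutant yolk sacs, an effect of -0.33. Pgam1 was there at 9.91 and 9.80 in the wild-type and 9.82 and 10.14 in the mutant yolk sacs. The yolk sac value of Pgk1 depended on the probe, since its other kept probes gave 0.26 and 0.24. All 4 enzymes fell from embryo to yolk sac: Pkm by 1.31 (SE 0.13, adjusted p = 4.37e-05), Pgk1 by 1.02 (adjusted p = 7.16e-05), Pgam1 by 0.90 (adjusted p = 0.000294) and Gapdh by 0.26 (adjusted p = 0.0131). For Pgk1, 1 of its other probes showed a tissue difference of 0.06. Pkm was at 13.88 and 13.83 in the wild-type embryos, at 13.88 in mutant embryo 1 and at 14.13 in the library labelled mutant embryo 2, with 12.58 and 12.59 in the wild-type and 12.36 and 12.94 in the mutant yolk sacs. Gapdh, often used as a reference gene, was at 13.78 and 13.76 in the wild-type embryos, at 13.81 in mutant embryo 1 and at 13.90 in the library labelled mutant embryo 2, with 13.55 and 13.53 in the wild-type and 13.46 and 13.68 in the mutant yolk sacs. The Gapdh values span well under 1 log2 unit over all 8 libraries.

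Lactate dehydrogenase A (Ldha) turns pyruvate into lactate, Slc16a3 (MCT4) exports the lactate, and Pdk1 blocks the entry of pyruvate into mitochondria. Slc16a3 was at 6.55 and 6.40 in the wild-type embryos, at 6.92 in mutant embryo 1 and at 7.95 in the library labelled mutant embryo 2. Its effect of 0.96 (SE 0.39, limma adjusted p = 0.368) did not pass, and it was 0.44 when the library labelled mutant embryo 2 was left out. In yolk sacs it was at 4.66 and 4.73 in the wild-type and 4.64 and 5.63 in the mutant yolk sacs. There it was detected on both arrays of mutant yolk sac 2 and on no other, and the genotypes overlapped. Between tissues the difference is again a bound: Slc16a3 was at least 3.33-fold lower in yolk sac (adjusted p = 0.000250), and at least 2.60-fold between the wild types alone. Pdk1 differed by 0.60 between embryo genotypes and -0.19 between yolk sac genotypes, and Ldha by 0.19 and 0.06, none of which passed. Without the library labelled mutant embryo 2 the embryo values were 0.13 for Pdk1 and 0.092 for Ldha. The yolk sac value of Pdk1 turned to 0.21 without mutant yolk sac 1, and its second kept probe gave 0.33. The Ldha probe is among the brightest, with a signal of 15226 to 20615 in embryos and 11317 to 17090 in yolk sacs.

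Bnip3l marks mitochondria for removal and Higd1a sits in the inner mitochondrial membrane. Bnip3l was at 11.27 and 11.24 in the wild-type embryos, at 11.30 in mutant embryo 1 and at 11.87 in the library labelled mutant embryo 2, with 9.93 and 10.003 in the wild-type and 10.003 and 10.33 in the mutant yolk sacs. It did not pass between genotypes, and its embryo effect of 0.33 was 0.045 without the library labelled mutant embryo 2. Bnip3l fell by 1.35 from embryo to yolk sac (SE 0.13, limma adjusted p = 4.59e-05). Higd1a was at 5.12 and 5.16 in the wild-type embryos, at 5.37 in mutant embryo 1 and at 6.10 in the library labelled mutant embryo 2, an effect of 0.59 (adjusted p = 0.293), which was 0.23 without the library labelled mutant embryo 2. In yolk sacs Higd1a was at 4.91 and 4.88 in the wild-type and 5.20 and 5.17 in the mutant yolk sacs, at least 1.06-fold higher in the mutants, since no wild-type array detected it. It fell by 0.40 in yolk sac (adjusted p = 0.0387), a call kept in 8 of 18 alternatives and measured partly against background.

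Neither HIF alpha subunit passed between genotypes. Hif1a was at 8.66 and 8.54 in the wild-type embryos, at 8.55 in mutant embryo 1 and at 8.44 in the library labelled mutant embryo 2. In yolk sacs it was at 8.60 and 7.57 in the wild-type and 8.43 and 7.90 in the mutant yolk sacs, where the wild types alone lay 1.03 apart. The effects were -0.10 in embryo (SE 0.32, limma adjusted p = 0.954) and 0.08 in yolk sac (SE 0.32, adjusted p = 0.917). Epas1, the HIF-2 subunit, was detected on 0 of 8 embryo arrays and on all 8 yolk sac arrays. Its yolk sac levels were 6.17 and 5.44 in the wild-type and 6.22 and 6.46 in the mutant yolk sacs, an effect of 0.53 (adjusted p = 0.224), and every embryo read between 4.78 and 4.89, not well above background. It was at least 1.94-fold higher in yolk sac (adjusted p = 0.000159).

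Of the proteins that limit HIF, Vhl was at 6.68 and 6.65 in the wild-type embryos, at 6.69 in mutant embryo 1 and at 6.63 in the library labelled mutant embryo 2, with 6.01 and 6.48 in the wild-type and 6.28 and 6.48 in the mutant yolk sacs. Egln1, the main oxygen sensor, was at 6.76 and 6.66 in the wild-type embryos, at 6.52 in mutant embryo 1 and at 7.37 in the library labelled mutant embryo 2, with 5.84 and 5.81 in the wild-type and 5.54 and 6.44 in the mutant yolk sacs. In both tissues Egln1 was highest in number 2 of the mutants and lowest in number 1. The genotype effects were -0.01 and 0.14 for Vhl and 0.24 and 0.16 for Egln1 in embryo and yolk sac, none of which passed. Without the library labelled mutant embryo 2 the embryo value of Egln1 was -0.18. Both fell in yolk sac relative to embryo, Egln1 by 0.92 (SE 0.24, limma adjusted p = 0.00809) and Vhl by 0.35 (adjusted p = 0.0195). Egln3, itself a strong HIF target, was at 6.32 and 6.04 in the wild-type embryos, at 6.54 in mutant embryo 1 and at 7.61 in the library labelled mutant embryo 2. It was at 5.83 and 5.71 in the wild-type and 6.46 and 6.99 in the mutant yolk sacs. All mutants lay above all wild types in each tissue, with effects of 0.89 (SE 0.33, adjusted p = 0.321) and 0.95 (SE 0.33, adjusted p = 0.168), which did not pass. The embryo effect was 0.36 without the library labelled mutant embryo 2.

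The collagen hydroxylase subunits P4ha1 and P4ha2 need oxygen for their reaction. P4ha2 was at 8.29 and 8.45 in the wild-type embryos, at 8.91 in mutant embryo 1 and at 9.19 in the library labelled mutant embryo 2. Both mutants lay above both wild types and the groups did not overlap, for a rise of 0.68 on the log2 scale (1.6-fold, SE 0.13, limma adjusted p = 0.0461). A second kept probe gave 0.81. The call was close to the threshold and held in 3 of 19 alternatives. It was lost with any 1 of the 8 libraries left out (adjusted p = 0.0526 to 0.327) and for wild-type embryo 2 against mutant embryo 1, the embryos named in the series design (0.45, adjusted p = 0.796). In yolk sacs P4ha2 was at 9.52 and 9.53 in the wild-type and 9.35 and 9.54 in the mutant yolk sacs, with overlap between genotypes. The effect there minus the embryo effect was -0.75 (adjusted p = 0.0972), so the tissues were not shown to differ. P4ha2 rose by 0.78 from embryo to yolk sac (adjusted p = 0.000109). P4ha1 differed between genotypes by 0.30 in embryo and 0.36 in yolk sac, where its second probe gave -0.29, and passed in no comparison. The embryo value was 0.16 without the library labelled mutant embryo 2.

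Ndrg1, Ddit4 and Ankrd37 are HIF targets outside glycolysis, and Ddit4 (REDD1) restrains growth signalling through mTORC1. Ddit4 was at 8.78 and 8.87 in the wild-type embryos, at 8.60 in mutant embryo 1 and at 10.62 in the library labelled mutant embryo 2. Only the library labelled mutant embryo 2 exceeded the wild types, so the effect of 0.78 (SE 0.60, limma adjusted p = 0.681) became -0.23 without it. In yolk sacs Ddit4 was at 5.73 and 5.75 in the wild-type and 6.41 and 7.46 in the mutant yolk sacs, with both mutants above both wild types. That effect of 1.19 (SE 0.60, adjusted p = 0.306) was the largest of the members in yolk sac and did not pass. Ddit4 also had the widest tissue difference of the members measured in both tissues, since it fell by 2.88 in yolk sac (SE 0.42, adjusted p = 0.000429). Ndrg1 was at 5.76 and 5.91 in the wild-type embryos, at 6.28 in mutant embryo 1 and at 7.18 in the library labelled mutant embryo 2. It was at 6.36 and 6.61 in the wild-type and 6.70 and 7.43 in the mutant yolk sacs. The genotypes did not overlap in either tissue, with effects of 0.89 (adjusted p = 0.306) and 0.58 (adjusted p = 0.348), and neither passed. With the library labelled mutant embryo 2 left out, the embryo effect was 0.44. A second kept probe gave 0.11 in yolk sac. Ankrd37 differed by 0.49 in embryo and 0.19 in yolk sac, with overlap in both. Its direction rested on 1 library in each tissue, at -0.21 without mutant yolk sac 2 and -0.0052 when the library labelled mutant embryo 2 was left out.

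**Figure D3:**
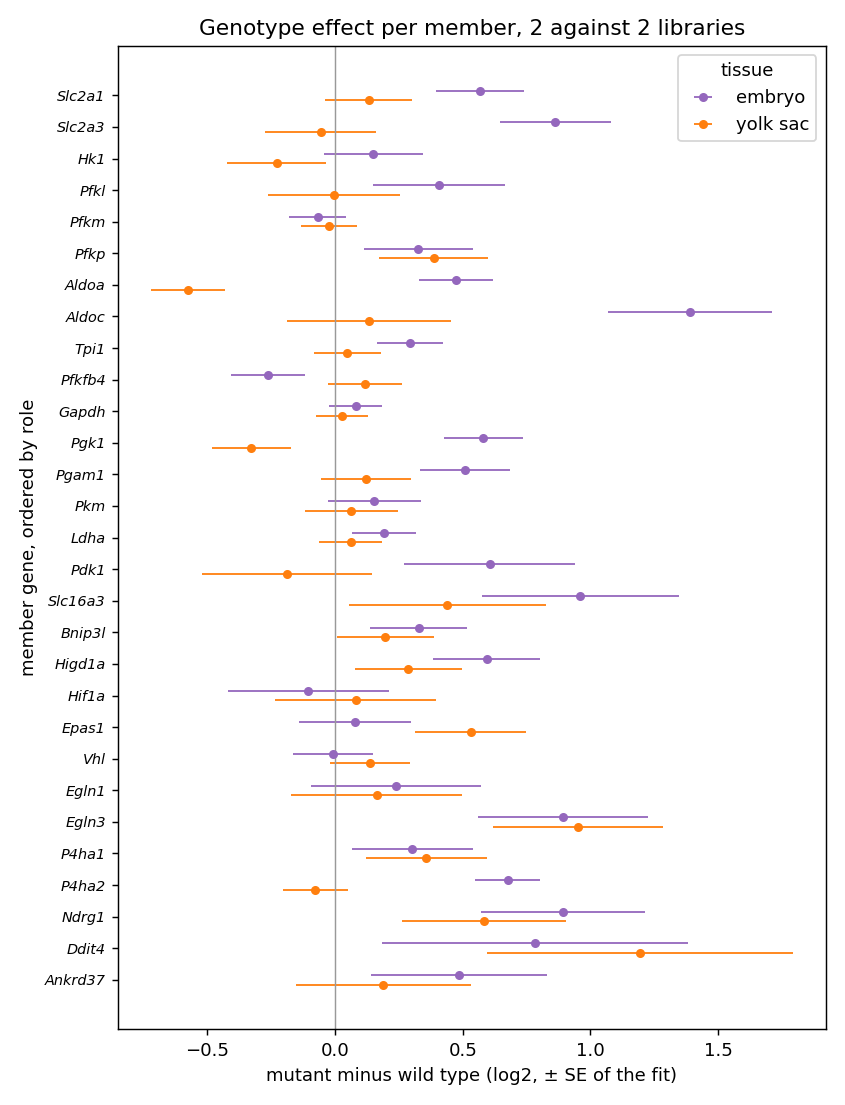
Genotype effect (mutant minus wild type, log2) of each tested member in embryo (purple) and yolk sac (orange), with bars for the SE of the fit, 2 libraries a group. In embryo 25 of 29 points lie above 0, with a median of 0.41, and in yolk sac 21, with a median of 0.12.

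The yolk sac effect minus the embryo effect had a median of -0.25 over the members (0.0101 over all genes) and was above 0 for 9 of 29. No member passed this test of the difference (limma, adjusted p), against 0.335% of all genes, and 5 members (17.2%) had an unadjusted p under 0.05, near the 18.7% of all genes. The median was 0.0030 without mutant yolk sac 1 and 0.036 when the library labelled mutant embryo 2 was left out, so its direction rested on these libraries.

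The library with the higher member levels was number 2 in both mutant tissues, and number 2 of embryo and yolk sac is the same conceptus. Within the mutants, conceptus 2 exceeded conceptus 1 for 25 of 29 members in the embryo (median 0.36) and for 25 in the yolk sac (median 0.28). For 22 members (75.9%) it did so in both tissues, against 28.5% of all genes. In the wild types conceptus 2 exceeded conceptus 1 in both tissues for 7 members (24.1%), against 27.2% of all genes, with medians of -0.01 and -0.02. Ddit4 was 2.03 higher in the embryo and 1.04 in the yolk sac of mutant conceptus 2, on the log2 scale. The differences were 0.94 and 0.79 for Pdk1, 0.98 and 0.80 for Ankrd37, and 0.84 and 0.90 for Egln1. Slc16a3 was 1.03 higher in the embryo and at least 1.51-fold higher in the yolk sac, where no array of conceptus 1 detected it. The brake on mitochondrial pyruvate, a stress gene and an oxygen sensor shared the direction in both tissues of the conceptus. The 7 members that did not were Pfkp, Aldoc and Higd1a, higher in the embryo alone, Pfkfb4, Epas1 and Vhl, higher in the yolk sac alone, and Hif1a, lower in both. Aldoc was undetected in mutant yolk sac 2 and Epas1 in every embryo, so their order in those tissues is not informative. Across the 29 members the differences in embryo and yolk sac correlated at a Pearson r of 0.52 and a Spearman rho of 0.42 in the mutants, against 0.22 and 0.17 over all genes, and at a Pearson r of 0.02 in the wild types. Genes are not independent replicates, these values share 2 conceptuses, and no test was made. Under the authors' processed values, median scaling or either set of repeat arrays, settings added after the data were seen, 20 to 22 members were higher in both tissues. For comparison, the median genotype effect in embryo was 0.41.

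**Figure D4:**
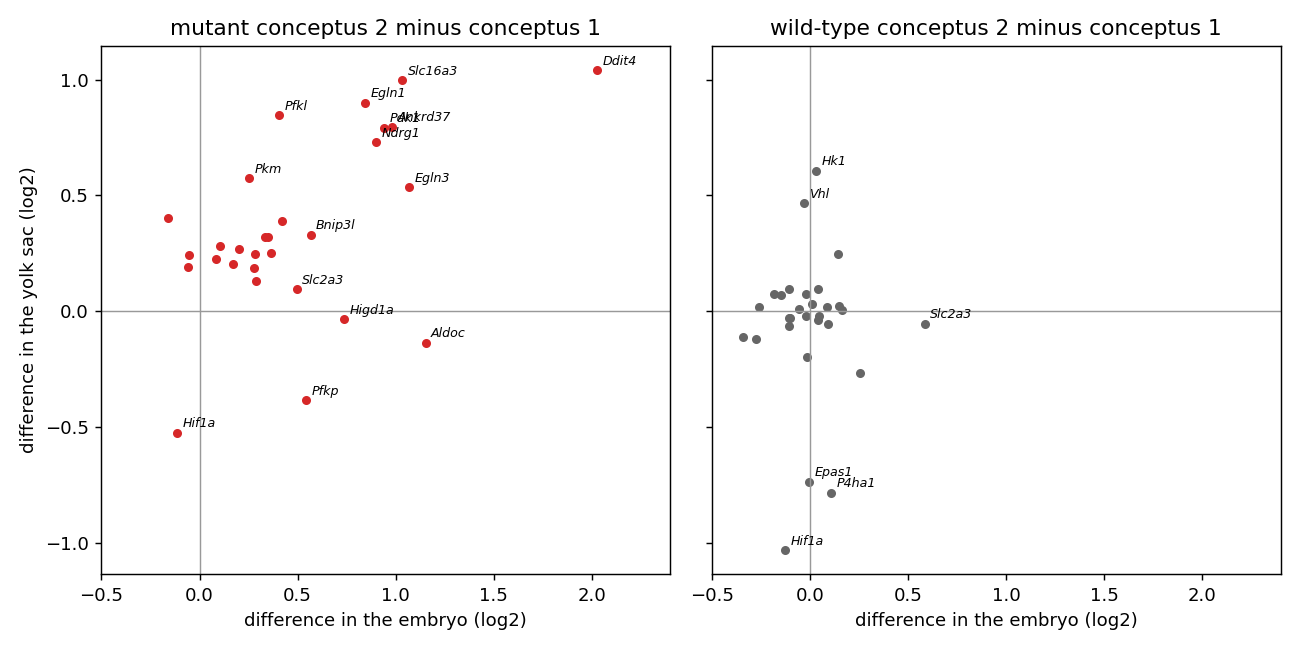
Conceptus 2 minus conceptus 1 (log2) in the embryo (x) and in the yolk sac (y) for the 29 tested members, in the mutants (left) and the wild types (right). In the mutants 22 of 29 points lie in the upper right field, and in the wild types 7.

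Between the tissues, 21 of the 29 members passed: 6 were higher in yolk sac (36.7% of all genes) and 15 lower (40.9%). The median tissue difference was -0.40, against -0.03 over all genes. Higher in yolk sac were the glucose transporters, Pfkp, Pfkfb4, Epas1 and P4ha2. Lower were 9 of the 11 glycolytic enzymes, Slc16a3, both mitochondrial genes, Egln1, Vhl and Ddit4. Both genes that bring glucose in stood higher in yolk sac and most enzymes that process it to pyruvate lower. With the conceptus as a block, 26 members passed (77% of all genes), the added ones being Tpi1 (adjusted p = 0.0309), Pdk1 (0.00222), Egln3 (0.0197), Ndrg1 (0.00152) and Ankrd37 (0.00084). The difference of Tpi1 was 0.23, while its other kept probes gave -0.24 and -0.26. In the wild types alone 18 passed (69.5% of all genes) and in the mutants alone 19 (69.3%). Some of the smaller differences did not hold throughout. Aldoa (adjusted p = 0.233), Gapdh (0.0818), Hk1 (0.197) and Higd1a (0.325) did not pass in the wild types alone, nor Pfkm (0.0641) and Vhl (0.144) in the mutants alone. With median scaling Gapdh (-0.096, adjusted p = 0.256) and Pfkm (-0.11, adjusted p = 0.241) did not pass. The Vhl call also ended without mutant embryo 1 (adjusted p = 0.0586) or mutant yolk sac 1 (0.0619), and that of Higd1a without any 1 of 6 libraries. All 13 markers of visceral endoderm were higher in yolk sac, and their part in these differences was not tested.

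**Figure D5:**
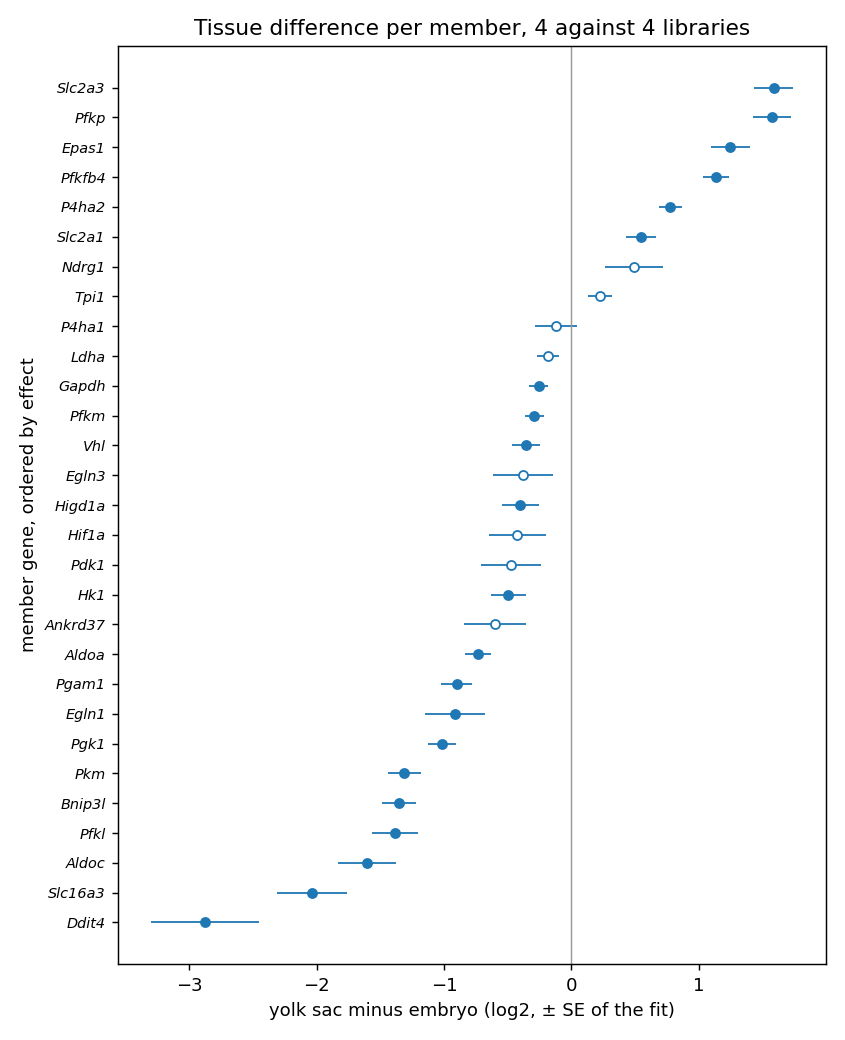
Yolk sac minus embryo (log2) for each tested member with the SE of the fit, 4 libraries a tissue, both genotypes together; filled points have an adjusted p under 0.05. They run from Ddit4 at -2.88 to Slc2a3 at 1.59, with 6 filled points above 0 and 15 below; those of Epas1, Aldoc and Slc16a3 are measured against a tissue where most arrays did not detect them.

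Related genes outside the members were read for comparison. Of 25 further hypoxia targets, none passed between embryo genotypes, 21 were above 0 and the median was 0.26. Both mutant embryos enter this count and median, which were not taken without the library labelled mutant embryo 2. In yolk sacs none passed, 19 were above 0 and the median was 0.08. Vegfa, the growth factor for vessels, was at 9.05 and 8.78 in the wild-type embryos, at 8.99 in mutant embryo 1 and at 9.38 in the library labelled mutant embryo 2. In mutant embryo 1 it thus lay between the wild types. Of 14 further glycolysis and pyruvate genes, 1 passed in embryos and none in yolk sacs. That gene, the hexokinase Hk3, fell, at 5.60 and 5.40 in the wild-type embryos against 4.67 and 4.48 in the mutants. No mutant embryo array detected it, and it was at least 1.34-fold lower (limma adjusted p = 0.0138). None of 11 genes of the HIF machinery, 4 of gluconeogenesis, 5 of the pentose phosphate pathway or 14 of the citric acid cycle passed between genotypes in either tissue. Their embryo medians were 0.0041, -0.11, -0.17 and -0.06. The median over the 14 further glycolysis and pyruvate genes was -0.03.

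Between tissues the further genes differed in both directions, as did most genes tested. Of the 14 further glycolysis and pyruvate genes 6 were higher in yolk sac and 5 lower. Over all genes 36.7% were higher and 40.9% lower, so these counts are near the background. The liver-type glucose transporter Slc2a2 was 4.96 higher in yolk sac (log2, limma adjusted p = 0.000144) and the gluconeogenic Fbp2 4.41 higher (adjusted p = 1.35e-05). Of the 8 embryo arrays 6 detected Slc2a2 and 4 detected Fbp2, so these sizes are measured partly against background. The wild-type embryos were uneven, at 4.44 and 7.57 for Slc2a2 and at 4.57 and 6.40 for Fbp2. Another glucose transporter, Slc2a4, read 0.76 lower in yolk sac (adjusted p = 0.000578), but it was detected on only 8 arrays in all. It was at 4.80 and 4.63 in the wild-type and 4.86 and 4.63 in the mutant yolk sacs. The lowest detected signal there stood at 5.04 or above, so the fall is measured against background and its size is not known. Of the muscle-type enzymes, Eno3 fell by 3.26 (adjusted p = 6.22e-08) and Pgam2 fell by 2.84 (adjusted p = 2.24e-07). Pgam2 was detected on 5 of the 8 yolk sac arrays, so its size is also measured partly against background. Of the 14 citric acid cycle genes 7 were higher in yolk sac and 1 lower, among them Ogdh, 1.02 higher (adjusted p = 1.82e-05). Markers of visceral endoderm and of heart muscle moved with these genes, and their part was not tested.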

How the data were processed

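The deposited intensity per probe is linear, with background subtracted beforehand (values below 0 occur) and with no scaling between arrays, as the values show. A score from 0 to 1 that the authors deposited beside each signal was taken, as an assumption, to rise with detection, and was paired with signals by their ranks on the same array, because score and signal were unrelated row by row (Spearman 0.00157 to 0.0106). The authors' processed values, deposited as log2, have every probe's median set to 0 in each tissue and served as an alternative only. For the authors' software, the sources used here name none. All unmatched value columns numbered 0.

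Signals were normalized with neqc (offset 16) in limma 3.58.1 under R 4.3.3, so fold changes understate those of dim probes, and the 2 arrays of a sample were averaged. Probes were named from the platform annotation (34885 of 45281 with 1 symbol, 18 with several, 10378 with none). Probes detected (p under 0.05) on at least 4 of 16 arrays were kept, and a gene was represented by its brightest kept probe on average. Group means were fitted over the 8 samples (lmFit, eBayes), with 4 residual and 3.35 prior degrees of freedom and Benjamini-Hochberg adjustment over 11332 genes, and the fit was tested on simulated data. An exact permutation test of 2 against 2 cannot go below p = 0.333. Samples were grouped by genotype and tissue labels, and p-values reflect only the spread among these samples. Where a group had no detected array, a fold is a bound against the lowest detected signal. The embryo and yolk sac of 1 conceptus are paired by the labels (correlation of deviations 0.22 in mutants, 0.04 in wild types).

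The members and lists were chosen with earlier results of these data known. Values per sample were given for members past the threshold, for the 6 largest and 3 smallest genotype effects in each tissue, for the 6 largest tissue differences each way, and for Hif1a, Epas1, Vhl and Egln1. Alternatives covered scaling, offset, filter, probe choice, repeat arrays, single libraries left out, blocks and sample subsets. Motifs were searched in RefSeq promoters of GRCm38.p6.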

Additional observations from a re-analysis of the deposited data

Results flagged for a closer look

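Aldoa and Pgk1 had opposite directions in the tissues without overlap: both mutants lay above both wild types in embryos and below them in yolk sacs. The yolk sac effect minus the embryo effect was -1.05 for Aldoa (limma adjusted p = 0.0673) and -0.91 for Pgk1 (adjusted p = 0.0982), so the test of the difference did not pass for either gene. For Pgk1, 2 other kept probes were above 0 in yolk sac, and they gave 0.68 and 0.17 in embryo.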

How the results depend on the processing

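Between embryo genotypes 1 member passed, and 0 passed with the authors' processed values, with median scaling, with no filter on dim probes, with detection on at least 8 arrays, with the first or the second arrays only, with embryos alone, and with the pair of the series design. Over all genes 2.13% passed in the main fit, 0.812% with median scaling, 0.212% with embryos alone and 0% with the authors' processed values. The 0 members with the authors' values therefore do not set the members apart. Without mutant embryo 1 the effect was 1.97 for Aldoc and 0.96 for Higd1a. The embryo median of 0.41 ran from 0.13 to 0.66 with single libraries left out and was 0.11 in the series pair. The yolk sac median of 0.12 was 0.33 with the authors' values and 0.29 with median scaling, where all genes were shifted by 0.10 and 0.12, and -0.073 to 0.27 with single libraries left out, lowest without mutant yolk sac 2. No yolk sac member passed under any alternative run. The median difference of the effects ran from -0.50 to 0.036 (0.0030 without mutant yolk sac 1), with 0 to 1 members past the threshold, Aldoc without mutant embryo 1. Between tissues 18 to 26 members passed, against 69.3% to 78.4% of all genes, or 50.4% with no filter on dim probes. The authors' values, centred within tissue, could not give that comparison.

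With 1 library of the tissue left out, the genotype effect turned in sign for 5 of 29 members in embryo and 18 of 29 in yolk sac, 10 of them without mutant yolk sac 2. None of the following effects passed, and each turned in sign. In yolk sac, with single libraries left out, Egln1 ran from -0.29 (without mutant yolk sac 2) to 0.61, Slc16a3 from -0.059 (the same library) to 0.94, Hif1a from -0.43 (without wild-type yolk sac 2; -0.18 without mutant yolk sac 1) to 0.60, Hk1 from -0.53 to 0.075 (without wild-type yolk sac 2) and Vhl from -0.096 (without wild-type yolk sac 1) to 0.37. Ankrd37 ran from -0.21 to 0.59, Pdk1 from -0.59 to 0.21, Tpi1 from -0.077 to 0.17, Ldha from -0.073 to 0.19 (each turning without mutant yolk sac 2, or 1 for Pdk1) and P4ha1 from -0.035 (without wild-type yolk sac 2) to 0.75. Pdk1 was 0.070 with the mean over probes, Tpi1 -0.0175 with first and Ankrd37 -0.042 with second arrays. With first arrays Hif1a was -0.11 and Vhl -0.033, and with the mean over probes Hk1 was 0.013 and Pgk1 0.058. In embryo, without the library labelled mutant embryo 2, Ddit4 was -0.23, Egln1 -0.18 and Vhl 0.023; their range reached 1.80 for Ddit4, 0.66 for Egln1 and -0.037 for Vhl without mutant embryo 1. Ankrd37 ran from -0.0052 to 0.98 there. Pfkm ran from -0.15 without the library labelled mutant embryo 2 to 0.017 without mutant embryo 1. In the series pair Ddit4 was -0.27, Egln1 -0.13, Hif1a 0.014 and Vhl 0.037. With the authors' values Pfkm was 0.045 and Vhl 0.053. Vhl was 0.0075 without wild-type embryo 1, and Epas1 -0.025 with second arrays. The cause was not tested.

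With the replicate number as a block, the medians stayed at 0.12 and 0.41, with 0 yolk sac and 1 embryo member past the threshold. The numbers are shared across genotypes by name only (correlations 0.17 and 0.19). With the conceptus as a block the median difference was -0.25 with 0 members, and the tissue median -0.40. Signal over background limits Epas1, Aldoc, Slc16a3 and Higd1a, which were undetected in at least 1 group.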
